A study of Mus musculus with 14 samples.

Results

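Conventional CD4 T cells were examined in white nodules profiled for the B cell receptor, from sick mice with a B cell deletion of Eif3e. A cell was taken as a conventional CD4 T cell when its RNA library held at least 1 unique molecular identifier (UMI) of Cd3d, Cd3e or Cd3g, at least 1 UMI of Cd4, and none of Cd8a, Cd8b1, Foxp3, Areg, Cd79a, Cd79b or Ms4a1, with at most 10% mitochondrial UMIs. Members were thus chosen by their own UMI counts. This gate held 1174 of the 51694 cells past the mitochondrial limit in 5 nodules (2.27%). The whole series held 77442 deposited cells from 7 nodules, of which 75548 passed that limit. Because the gate used the Cd3, Cd4, Cd8, Foxp3, Areg and B cell genes, the levels of those genes and the size of the gate are descriptions and were not tested.

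The animals were Eif3e fl/fl Cγ1Cre mice (cKO mice) on a C57BL/6J background that also carried a Rosa26 YFP reporter with a floxed stop. The Cre recombinase is expressed from the Ig γ1 locus of B cells, so T cells were not its intended target. The study reported that tumor B cells and CD4 T cells lacked YFP and had eIF3e protein at normal amounts. Total nodule cells were sequenced from 1 nodule per mouse, and the B cell receptor was profiled in the 5 nodules used here. These were a liver nodule of mouse 27 (12 mo), a lung nodule of mouse 29 (12 mo), a spleen nodule of mouse 31 (13 mo), a thymus nodule of mouse 33 (16 mo) and a lung and thymus nodule of mouse 34 (9 mo). By the study's account, the sample of mouse 27 was a secondary tumor, grown in a Rag2-/- recipient from cells of that cKO mouse's primary liver nodule, whereas the remaining nodules were primary. Rag2-/- mice make no T or B cells of their own. No nodule from a mouse without the deletion was among these samples, and site, age and mouse cannot be told apart. All comparisons were therefore made between cell populations of the same nodules.

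CD4 T cells recognise peptides on major histocompatibility complex class II molecules and steer other cells through membrane ligands and cytokines. Follicular helper T cells give help to B cells through the CD40 ligand, the ICOS receptor and the cytokine interleukin-21, under the transcription factors Bcl6 and Maf. Other CD4 T cells produce interferon-γ, take up cytotoxic granule proteins, or restrain responses as Foxp3+ regulatory T cells. Cells with a Foxp3 or Areg UMI were outside the gate. Cells that expressed either gene but yielded no such UMI stayed inside, and their number was not tested.

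Total UMIs per library ranged from 43039759 to 75088225, and the gated cells contributed 4749892 UMIs in all. The nodule of mouse 33 held 615 of the gated cells (52.4%), and mice 27, 29, 31 and 34 held 84, 285, 78 and 112. As a share of all cells of the nodule, the gate took 0.894% in mouse 27 (95% Clopper-Pearson interval 0.714 to 1.11), 2.02% in mouse 29 (1.80 to 2.27), 0.686% in mouse 31 (0.543 to 0.856), 6.16% in mouse 33 (5.70 to 6.65) and 1.63% in mouse 34 (1.34 to 1.96), with a mean of 2.28% ± 2.24 (SD, n = 5). The thymus nodule of mouse 33 thus stood above the other nodules. B cells, with a UMI of Cd79a, Cd79b or Ms4a1 and no Cd3 UMI, numbered 6239, 1927, 8385, 4391 and 4894 in mice 27, 29, 31, 33 and 34. They were among 9396, 14078, 11367, 9984 and 6869 cells past the mitochondrial limit. The nodule of mouse 29 was thus not rich in B cells, and 9465 of its cells held neither Cd3 nor B cell UMIs. Per cell with a Cd3 UMI the spread was smaller, from 8.87% in mouse 31 to 16.5% in mouse 33 (12.1% ± 3.45, SD, n = 5). The median depth of the gated cells was 1792, 1722, 1830.5, 3961 and 2835 UMIs in mice 27, 29, 31, 33 and 34, so shares of cells with a UMI were compared after each cell had been thinned to 1000 UMIs. All intervals given here cover counting error only.

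The gate rested on few molecules per cell. Exactly 1 Cd4 UMI was present in 728 gated cells (62.0%), 446 held at least 2, and 196 held a single Cd3 UMI. Just outside the gate lay 3037 cells that lacked only a Cd4 UMI, 378 that lacked only a Cd3 UMI, 252 that carried an Areg UMI, 19 with a Foxp3 UMI, 223 with a B cell UMI (115 of them with 1 such UMI) and 87 with a Cd8 UMI (50 of them with 1). Free RNA in droplets can place a UMI in a cell that does not express the gene. A Cd4 UMI was found in 0.687% ± 0.336 of B cells (median depth 5192 to 8700 UMIs in the 5 nodules), in 3.37% ± 2.80 of T cells with a Cd8 UMI (1608 to 4748) and in 29.9% ± 9.60 of T cells without a Cd8 UMI (1358.5 to 3032; all mean ± SD, n = 5). Of the gated cells, 0 had a B cell receptor call, and 251 (21.4%) held a UMI of a myeloid marker or of a B cell marker outside the gate. No doublet caller was applied, and cells of the latter kind were removed in an alternative fit. Barcodes were shared by library pairs 3496 times over the 21 pairs, and 103 gated cells had a barcode that also occurred in another library.

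The label was checked against 4 markers that the gate did not use. Levels are given as CPM, the UMIs of a gene scaled to the summed UMIs of the gated cells of a nodule. Maf, a transcription factor of helper cells that drives Il21 and Il10, was at 370, 510, 578, 266 and 426 CPM in mice 27, 29, 31, 33 and 34, the order in which values of the 5 nodules are given from here on. Icos, the costimulatory receptor that sustains follicular helper cells, was at 328, 168, 149, 258 and 250 CPM. Both were detected in every nodule, with a UMI in 33.5% ± 6.22 (Maf) and 20.6% ± 7.30 (Icos) of cells thinned to 1000 UMIs (53.2% and 37.0% unthinned, n = 5). B cells of the same nodules, thinned alike, held them in 0.892% and 0.143% (means). In thinned CD8 cells Maf was held by 19.5% ± 7.79 and Icos by 15.5% ± 7.05, and in mouse 31 the Icos share was 15.0% in CD8 cells against 13.5% in the gate. Cd40lg, the ligand that licenses B cells through CD40, was at 19.1, 121, 118, 12.5 and 66.6 CPM. The 5 nodules thus fell into levels above 60 CPM in mice 29, 31 and 34 and below 20 CPM in mice 27 and 33. Il21 was rare, at 45.8, 15.8, 0, 18.7 and 26.2 CPM, and no Il21 UMI was found in the gated cells of mouse 31. Cd40lg was seen in 5.52% ± 4.60 of thinned cells, against 0.447% ± 0.709 of CD8 T cells and 0.138% of B cells (mean) treated alike.

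Markers of other lineages were low but not absent. The 13 genes of the NK, NKT and γδ T cell list, Eomes among them, summed to 397, 216, 404, 431 and 155 CPM. CD8 cells held 430 to 610 CPM of that list. Of the γδ and NK lineage genes, Trdc (a γδ T cell receptor constant gene) was at 0 to 4.32 CPM, Klrb1c (the NK receptor NK1.1) at 0 to 2.38 CPM and Zbtb16 (the transcription factor of NKT cells) at 0 to 24.5 CPM over the 5 nodules. The summed level of 18 B cell markers outside the gate ranged from 515 CPM in mouse 27 to 1448 CPM in mouse 31. The 14 myeloid markers summed to 126, 609, 675 and 183 CPM in mice 27, 31, 33 and 34, but to 2610 CPM in mouse 29. In that nodule the neutrophil genes S100a8 and S100a9 were at 560 and 746 CPM, and Lyz2, a lysozyme gene of macrophages and neutrophils, was at 580 CPM, of which 328 of 403 UMIs (81.4%) came from 1 cell. The stromal and epithelial list summed to 23.7 to 288 CPM. The part that such RNA had in the levels below was not tested, except in the fits without cells holding myeloid or B cell UMIs. The 15 genes of the regulatory T cell list were not low, summing to 2177, 2427, 2634.5, 1255 and 2006 CPM in the gate. CD8 cells held 1984, 728, 724, 1063 and 836 CPM of this list. Foxp3 T cells of mice 29, 31, 33 and 34, defined below, held 3194, 6157, 6466 and 4954 CPM. The label conventional rests on the absence of a Foxp3 UMI, and the part of regulatory T cells in the gate was not tested.

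Ccr7, the chemokine receptor of naive cells, was low, at 0 to 21.4 CPM over the 5 nodules. This did not hold for the naive and central memory list of 12 genes as a whole. It summed to 751 to 1940 CPM in the gate, against 1103 to 2228 CPM in CD8 cells. Antigen experience genes were broadly present, with Cd44 at 95.3 to 327 CPM, the inhibitory receptors Ctla4 at 335 to 587 CPM and Tigit at 317 to 484 CPM, and Tox, a transcription factor of chronically stimulated T cells, at 598 to 1271 CPM. The plot of summed list levels shows that inhibitory receptors and costimulatory molecules varied little between nodules, while the type 1 helper and cytotoxic lists varied most among the effector lists.

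**Figure D1:**
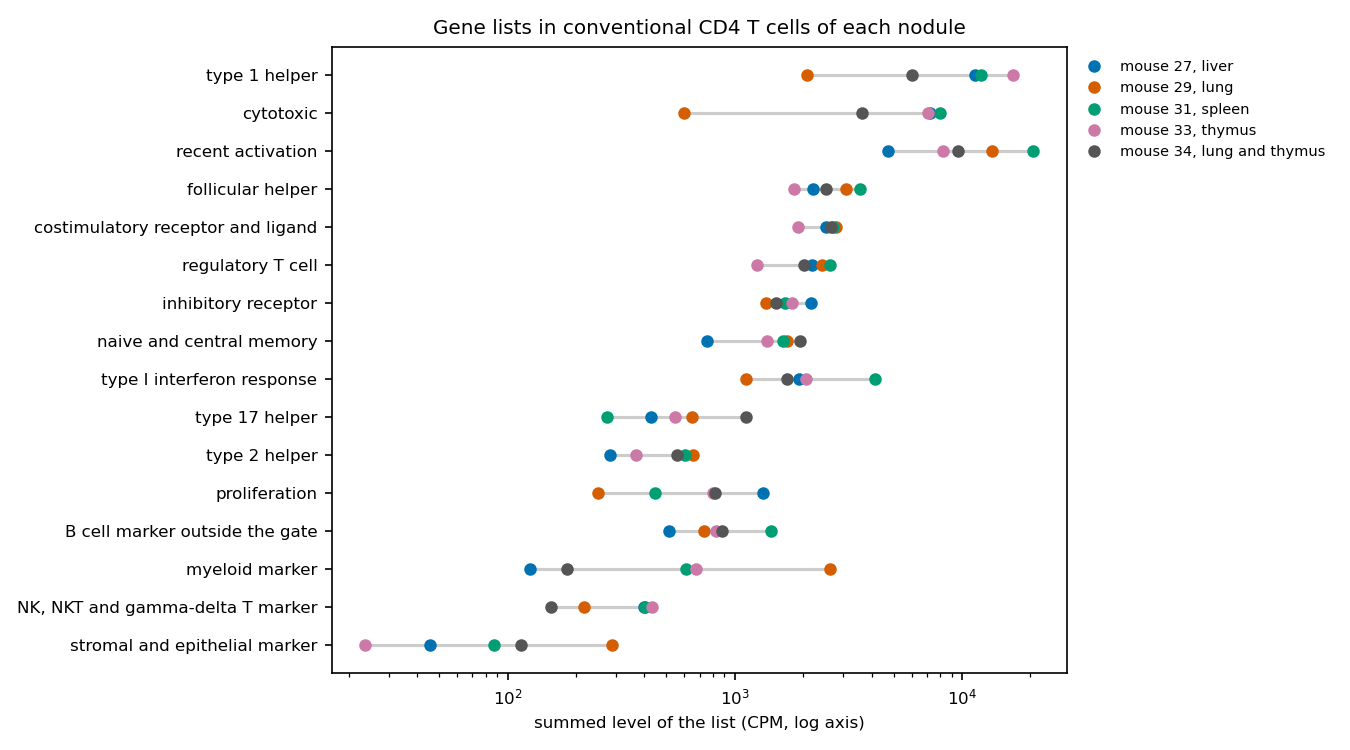
Summed level of each gene list in the conventional CD4 T cells of each nodule, in CPM on a log axis, with 1 point per nodule and a grey line over the range. Mouse 29 sat lowest for the type 1 helper (2080 CPM) and cytotoxic (597 CPM) lists and highest for myeloid markers (2610 CPM).

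The effector genes differed between nodules far more than the identity genes. Gzmk, a granule protease of memory-like T cells, was at 774, 76.3, 889, 838 and 540 CPM in mice 27, 29, 31, 33 and 34. Thinned to 1000 UMIs, the cells with a Gzmk UMI made up 44.8%, 5.26%, 43.2%, 45.8% and 23.4% in the same order, against 0.462% ± 0.414 of B cells. The lung nodule of mouse 29 was thus the low one, and it was also lowest for Gzmb, a cytotoxic protease (7.20 CPM against 199 to 835 elsewhere), for Nkg7, a granule membrane protein (63.3 against 576 to 2172), and for Ccl5, a chemokine of effector T cells (852 against 4605 to 14549). In mouse 34, 191 of the 257 Gzmb UMIs (74.3%) came from 1 cell. Ifng, the type 1 cytokine, spread less, at 194, 157, 367, 213 and 219 CPM. Tbx21, the type 1 master regulator T-bet, was low everywhere (6.21 to 30.5 CPM), whereas Eomes, the related factor of Gzmk-expressing cells, was at 328, 40.3, 242, 335 and 114 CPM.

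A second set of genes ran high in mouse 29, where Gzmk was lowest. Ikzf2, the transcription factor Helios, was at 358, 1024, 721, 83.8 and 338 CPM in mice 27, 29, 31, 33 and 34, highest in mice 29 and 31. Tnfsf8, the CD30 ligand, was at 45.8, 906, 336, 56.7 and 376 CPM, lowest in mice 27 and 33. Nrp1, a surface receptor known from regulatory T cells, was at 3.81, 278, 292, 19.6 and 126 CPM. The order of the nodules differed from gene to gene, and mouse 31 had high levels of both sets. With 1 nodule per mouse, none of these differences between nodules has a replicate.

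Both sets were then counted in single cells, in a grouping chosen after these levels had been seen. Of cells thinned to 1000 UMIs in mouse 29, 3.24% held Gzmk without Ikzf2, Cd40lg or Tnfsf8, 73.7% held at least 1 of the latter 3 without Gzmk, 1.62% held both and 21.5% held neither (n = 247 cells). In mouse 33 the corresponding shares were 44.4%, 8.67%, 3.60% and 43.4% (n = 611). Mice 27 (n = 67), 31 (n = 74) and 34 (n = 111) lay between them, with Gzmk alone in 34.3%, 35.1% and 18.9%, and Ikzf2, Cd40lg or Tnfsf8 alone in 11.9%, 43.2% and 36.9%. Cells with both made up 17.9% (95% Clopper-Pearson interval 9.61 to 29.2) in mouse 27 and at most 8.11% in the other nodules.

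**Figure D2:**
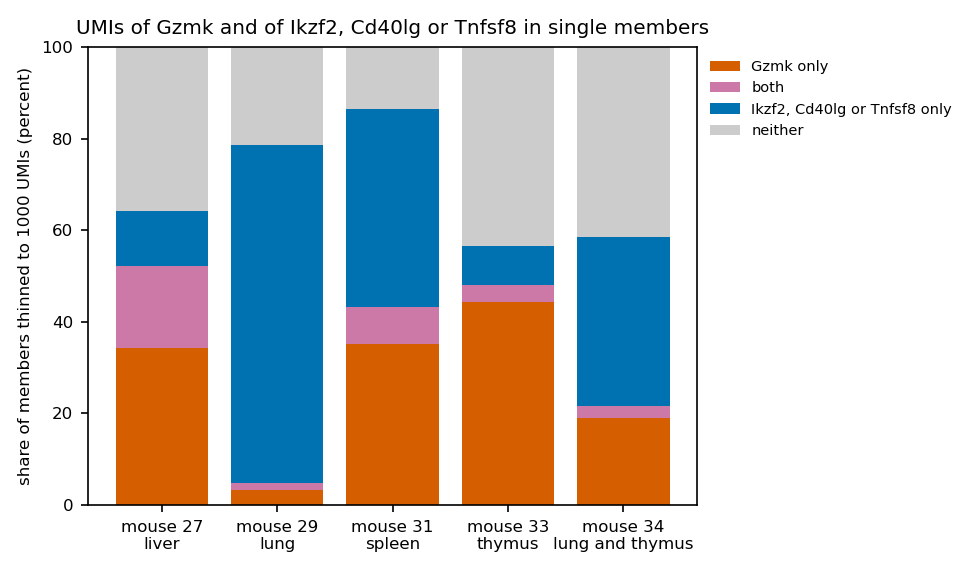
Share of conventional CD4 T cells of each nodule, thinned to 1000 UMIs, with UMIs of Gzmk only, of Ikzf2, Cd40lg or Tnfsf8 only, of both or of neither, in percent as stacked bars. Cells with Ikzf2, Cd40lg or Tnfsf8 only made up 73.7% in mouse 29 and 8.67% in mouse 33.

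How much of the helper transcripts of a nodule the gate captured was described next. The gate held 33.3%, 18.6%, 0%, 16.6% and 16.4% of the Il21 UMIs in mice 27, 29, 31, 33 and 34 (17% ± 11.8, SD, n = 5), out of 36, 59, 13, 361 and 67 Il21 UMIs per nodule. For Cd40lg it held 5.75%, 6.75%, 13.2%, 23.7% and 32.6% in the same order (16.4% ± 11.5), for Icos 14.5% ± 6.19 and for Maf 14.8% ± 7.90. Most UMIs of Il21, Cd40lg, Icos and Maf thus lay outside the gate. T cells with neither a Cd4 nor a Cd8 UMI held a further 16.5% ± 9.68 of Il21 and 23.5% ± 3.94 of Cd40lg. Of Il21, B cells held 21.7% ± 12.7 and cells with both Cd3 and B cell UMIs 17.2% ± 11.3. Of Cd40lg, cells outside all named populations held 29.7% ± 18.1 and cells with both Cd3 and B cell UMIs 13.9% ± 12.1. How much the demand for a Cd4 UMI cost the gate was not tested. Il4, a cytokine of type 2 and follicular helper cells, was mostly outside the gate, with 3.30% ± 3.43 in the gate and 49.8% ± 36.2 in B cells. The B cell share was 68.1%, 5.63%, 91.9%, 18.7% and 64.9% in mice 27, 29, 31, 33 and 34. In mice 29 and 33, cells outside all named populations held 63.2% and 36.7%. Cxcr5, the receptor that guides helper T cells into follicles, is also a B cell gene, and 80.6% of its UMIs were in B cells against 1.13% in the gate.

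**Figure D3:**
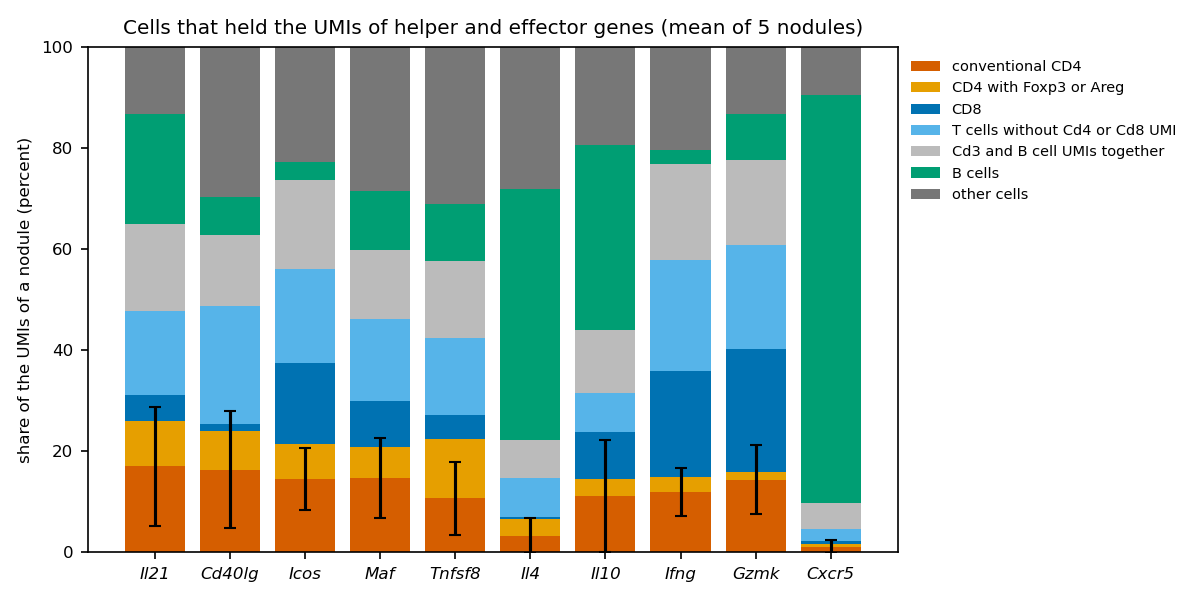
Share of the UMIs of helper and effector genes held by each cell population, in percent as stacked bars of the mean over 5 nodules, with the SD of the conventional CD4 share as error bars. The gate held 17% of Il21 and 14.3% of Gzmk UMIs on average, and B cells held 80.6% of Cxcr5.

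Conventional CD4 T cells were compared with CD8 T cells of the same nodules, which carried at least 1 Cd8a or Cd8b1 UMI and no Cd4 UMI (1720 cells), to describe what set them apart from the other main T cell population. Summed UMIs per nodule were tested with edgeR's quasi-likelihood test with the mouse as a block and Benjamini-Hochberg adjustment over all genes tested, the method behind every adjusted p below. Among the genes named below, Tnfrsf4, Il10, Il1r2 and Itgb8 were higher in CD4 cells, and the NK receptor genes Klrd1 and Klrk1 were lower. Of 5895 genes tested, 28 passed an adjusted p of 0.05 (0.475%), with 16 higher (0.271%) and 12 lower (0.204%) in CD4 cells.

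Tnfrsf4, the costimulatory receptor OX40, was at 408, 124, 217, 169 and 262 CPM in mice 27, 29, 31, 33 and 34, against 129, 25.6, 75.5, 94.4 and 37.4 CPM in CD8 cells. Every nodule was higher in CD4 cells, with ranges that overlapped only through the lowest CD4 and highest CD8 nodule, by a log2 fold change of 1.63 ± 0.26 (SE, adjusted p = 0.0232). Il10, the cytokine interleukin-10, was at 133, 125, 186, 181 and 155 CPM against 19.8, 85.8, 25.2, 66.7 and 80.9 CPM. Here the CD4 and CD8 ranges did not overlap, which held for 0.526% of all genes tested (log2 fold change 1.22 ± 0.23, adjusted p = 0.0427). Il1r2, the decoy receptor of interleukin-1, did not overlap either (31.1 to 92.8 against 0 to 25.6 CPM, log2 fold change 1.59, adjusted p = 0.0187). Itgb8, an integrin chain that activates transforming growth factor β, was at 15.3, 184, 236, 15.9 and 57.1 CPM against 24.7, 36.5, 6.29, 1.11 and 10.4 CPM, higher in 4 of 5 nodules (log2 fold change 2.63, adjusted p = 0.0187). Izumo1r, a folate receptor family member on helper and regulatory T cells, was higher in the same 4 nodules (log2 fold change 2.04, adjusted p = 0.0414). The transplanted tumor from mouse 27 was the exception for both.

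Among the other genes higher in CD4 cells, Cd5, a negative regulator of T cell receptor signals, rose by a log2 fold change of 0.89 (adjusted p = 0.0260). Trat1, an adaptor of the T cell receptor complex, rose by 1.07 (adjusted p = 0.0422) and Tespa1, which acts in T cell receptor signalling, by 1.19 (adjusted p = 0.0279). Ifit1, an interferon-induced gene, was at 263, 281, 795, 150 and 243 CPM against 94.0, 162, 497, 38.7 and 103 CPM, and so was higher within every nodule although the ranges overlapped (log2 fold change 1.16, adjusted p = 0.0299). It was the only one of 12 tested genes of the type I interferon list to pass, and the list median was 0.08 beside −0.0044 for all genes.

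Of the genes lower in CD4 cells, Klrd1, the CD94 chain of NK receptors, was at 83.9, 2.88, 0, 38.6 and 14.3 CPM against 416, 34.7, 107, 135 and 98.3 CPM in CD8 cells. It was lower in all 5 nodules (log2 fold change −2.35 ± 0.26, adjusted p = 0.00214), as was Klrk1, the activating receptor NKG2D (−2.55 ± 0.26, adjusted p = 0.00119). Prf1, the pore-forming protein perforin, was at 87.7, 11.5, 37.3, 141 and 40.5 CPM against 302, 43.8, 88.1, 194 and 142 CPM (−1.25 ± 0.23, adjusted p = 0.0402). Ly6c2, a surface antigen of effector and memory CD8 T cells, was lower by 2.48 on the log2 scale (adjusted p = 0.00663). Of the 15 tested genes of the cytotoxic list, Prf1, Klrk1 and Klrd1 fell, 0 rose, and 12 did not pass, with a list median of −0.91. Among those that did not pass were Gzmk (log2 fold change −0.38, adjusted p = 0.859), Gzmb (−0.91, adjusted p = 0.626) and Nkg7 (−1.13, adjusted p = 0.209). The γδ T cell receptor genes Tcrg-C2 and Tcrg-C4, which conventional T cells can transcribe at low level, were also lower (−1.99 and −1.86, adjusted p = 0.0414 and 0.0400).

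Among helper genes, Maf was at 391, 246, 264, 77.7 and 117 CPM in CD8 cells, below the CD4 level in 4 of 5 nodules, and did not pass (log2 fold change 1.13, adjusted p = 0.0638). Icos was at 341, 137, 176, 212 and 99.2 CPM in CD8 cells and did not separate the populations (0.31, adjusted p = 0.712). Cd40lg had too few UMIs for the fit, at 0, 16.4, 31.5, 0.637 and 0 CPM in CD8 cells. It was higher in CD4 cells in 5 of 5 nodules (67.4 ± 51.9 against 9.71 ± 14.0 CPM, mean ± SD, exact two-sided sign-flip permutation test on log2(CPM + 1), p = 0.0625, the smallest that 5 pairs allow). Il21 was higher in 4 of 5 nodules (21.3 ± 16.7 against 3.87 ± 3.18 CPM, same exact test, p = 0.3125). These 2 exact tests were not adjusted. Of 13 tested genes of the follicular helper list, Izumo1r rose and 12 did not pass, with a list median of 0.55. Of 12 tested costimulatory genes, Tnfrsf4 rose and 11 did not pass, with a median of 0.71. Of 10 tested genes of the regulatory T cell list, 1 rose and 9 did not pass, with a median of 0.77. Ikzf2 (1.22, adjusted p = 0.158) and Tnfsf8 (1.82, adjusted p = 0.148) did not pass. Eif3e, the gene that Cre targets in activated B cells, was at 168, 118, 93.2, 159 and 174 CPM in CD4 cells against 148, 170, 145, 161 and 170 CPM in CD8 cells (−0.22, adjusted p = 0.761).

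**Figure D4:**
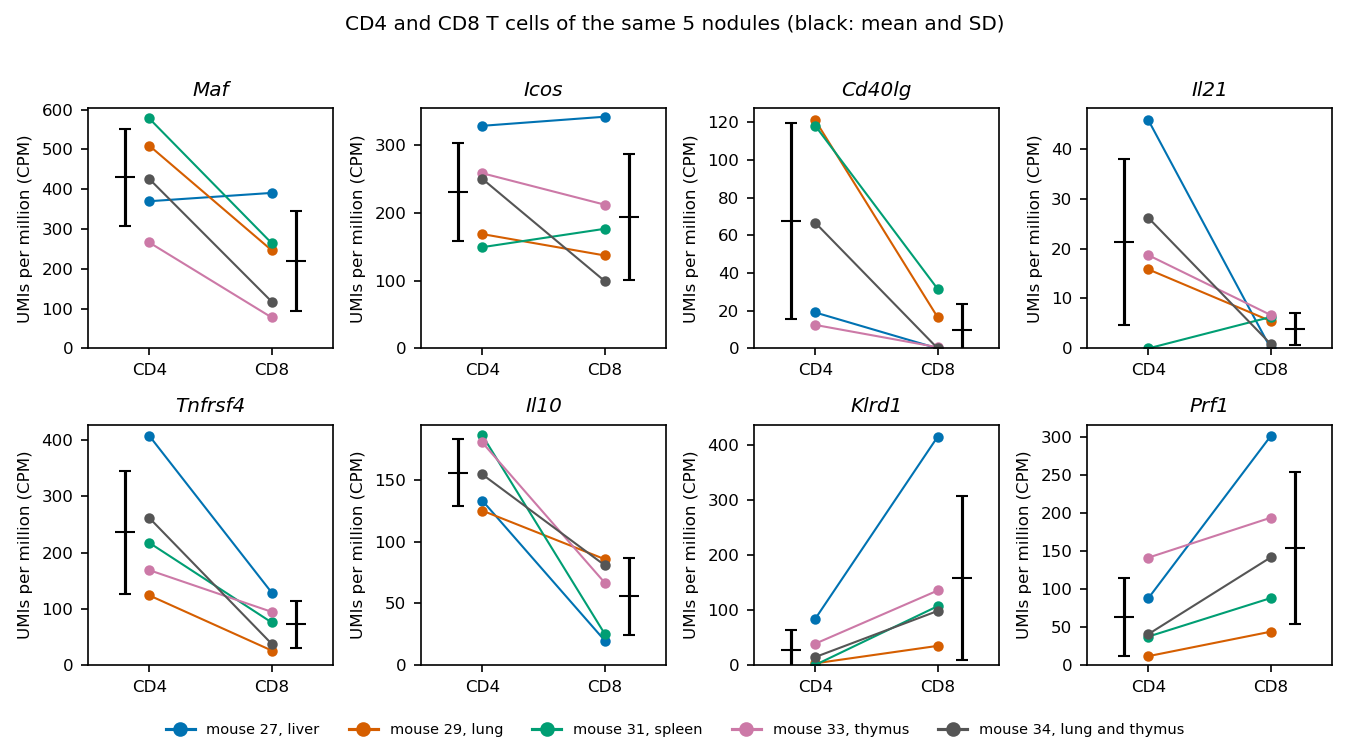
Levels of 8 genes in conventional CD4 and CD8 T cells, in CPM, with 1 line per nodule and the mean ± SD over 5 nodules in black beside the points (SD bars are cut at 0). Tnfrsf4 and Il10 were higher and Klrd1 and Prf1 lower in CD4 cells in every nodule, while the lines of Icos crossed.

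The number of calls against CD8 cells depended on single nodules. It came to 98 when mouse 27 was left out, to 4 when mouse 29 or mouse 34 was, to 12 when mouse 31 was and to 20 when mouse 33 was. Klrd1 kept its call in 5 of 5 such fits, and Klrk1 and Ly6c2 in all 4 in which they could be tested. Tnfrsf4 was lost without mouse 29, 31 or 34, Il1r2 without mouse 29 or 34, and Prf1 without mouse 27, 29, 31 or 34. Il10, Izumo1r, Cd5, Trat1, Tespa1 and Tcrg-C2 were each lost without mouse 29, 31, 33 or 34. Itgb8 was lost without mouse 31, 33 or 34 and kept its call in 1 of 4 fits. Ifit1 was lost without mouse 29, 33 or 34, and Tcrg-C4 without mouse 31 or 34. With members of at least 2 Cd4 UMIs, 7 genes passed in 4 nodules, and without the mouse block 1 gene passed.

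Conventional CD4 T cells were next set beside Foxp3 T cells. Requiring Cd4 and excluding Areg left at most 6 Foxp3 cells per nodule, so all Foxp3 T cells free of Cd8 and B cell UMIs were used (108 cells), in the 3 nodules with at least 20 of them (mice 29, 31 and 34). The effector genes Ccl5, Ifng and Nkg7 were higher in the conventional cells, and 4 genes of the regulatory T cell list were lower. Of 2402 genes tested, 37 passed (1.54%), 14 higher (0.583%) and 23 lower (0.958%).

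Ccl5 was at 852, 10327 and 4605 CPM in mice 29, 31 and 34, against 28.4, 236 and 369 CPM in Foxp3 cells (log2 fold change 4.56 ± 0.26, adjusted p = 2.6e-08). The populations did not overlap for Ccl5, as for 8.16% of all genes tested in these 3 nodules. Ifng was at 157, 367 and 219 CPM against 28.4, 0 and 11.5 CPM (4.17 ± 0.59, adjusted p = 0.00239), and Nkg7 at 63.3, 1056 and 576 CPM against 0, 0 and 92.2 CPM (4.02 ± 0.56, adjusted p = 0.00239). Cxcr6, a chemokine receptor of tissue T cells, was at 128, 124 and 117 CPM against 0, 29.5 and 11.5 CPM (3.23, adjusted p = 0.0136). Themis, a T cell receptor signalling protein, was also higher (2.26, adjusted p = 0.00373). Of 5 tested cytotoxic genes, Nkg7 and the chemokine gene Ccl4 rose, and the list median was 3.09.

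On the other side, Ikzf2 was at 1024, 721 and 338 CPM against 1349, 1550 and 1025 CPM in Foxp3 cells, lower in all 3 nodules (−0.95 ± 0.22, adjusted p = 0.0473). Itgae, the integrin chain CD103, was at 17.3, 43.5 and 23.8 CPM against 128, 133 and 207 CPM (−2.56, adjusted p = 0.00711). Tnfrsf4 and Tnfrsf9, costimulatory receptors that regulatory T cells carry at high level, were lower as well (−1.16 and −1.07, adjusted p = 0.0478 for both). Of 9 tested genes of the regulatory list, these 4 fell and 0 rose, with a median of −0.97 beside 0.0045 for all genes. Il1r2, higher in the gate than in CD8 cells, was lower than in Foxp3 cells in all 3 nodules. It was at 67.2 ± 32.2 against 210 ± 99.2 CPM (mean ± SD, log2 fold change −1.57, adjusted p = 0.0234). Igkc, a B cell gene, was also lower in the conventional cells (−1.58, adjusted p = 0.0495), at 87.8, 93.2 and 40.5 CPM against 170, 605 and 80.6 CPM, and its part in the comparison was not tested. Without mouse 34 only 5 genes passed, Ccl5 among them, whereas without mouse 29 or 31 the number was 98 or 59. With no mouse block 0 passed by edgeR (91 at an unadjusted p under 0.05), and DESeq2 with the block called 9.

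CD4 T cells that carried an Areg UMI, a gene for a growth factor of tissue repair, formed the third neighbour (252 cells, 21 to 86 per nodule). The chemokine genes Ccl3 and Ccl4 were higher in the Areg-free gate, and Csf1, Rel and Nfkb1 were lower. Of 4144 genes tested, 16 passed (0.386%), 9 higher (0.217%) and 7 lower (0.169%). Ccl4 was at 2147, 240, 4412, 1806 and 1433 CPM against 712, 102, 297, 842 and 41.2 CPM, higher in every nodule (2.14 ± 0.35, adjusted p = 0.0322). Gzmk was at 303, 49.2, 84.7, 534 and 82.4 CPM in Areg-positive cells, below the gate in every nodule (1.47 ± 0.29, adjusted p = 0.0384). With Nkg7 (1.34) and the chemokine gene Ccl3 (1.53, adjusted p = 0.0384 for both), 4 of 7 tested cytotoxic genes rose, and the list median was 1.34. Csf1, a macrophage growth factor, was at 15.3, 40.3, 24.9, 18.1 and 7.14 CPM against 49.4, 81.9, 106, 50.9 and 82.4 CPM, without overlap, as for 0.265% of the genes tested (−1.60 ± 0.32, adjusted p = 0.0384). Rel and Nfkb1, NF-κB subunits induced on activation, were lower (−0.71 and −0.77, adjusted p = 0.0384 for both). Lyz2, a myeloid gene, was higher in the gate (1.60, adjusted p = 0.0384), at 7.63, 580, 304, 245 and 9.52 CPM against 0, 90.1, 254, 81.4 and 13.7 CPM, and its part in the comparison was not tested. These calls were fragile. When mouse 34 was left out, 0 genes passed by edgeR (280 at an unadjusted p under 0.05), and without mice 27, 29, 31 and 33 the numbers were 4, 45, 5 and 2. With the block but without cells holding myeloid or B cell UMIs 1 gene passed, and with at least 2 Cd4 UMIs per member 1 passed, 0 of the 16 being among them in either fit. DESeq2 called 15 over all cells.

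Within the gate, cells with a Gzmk UMI were compared with cells without in every nodule. This split was chosen after the levels of Gzmk had been seen, and Gzmk itself was left out. It parted the cells of mice 27, 29, 31, 33 and 34 into 59 and 25, 23 and 262, 39 and 39, 480 and 135, and 34 and 78. Gzmb, Eomes and Nkg7 and 4 proliferation genes were higher in cells with Gzmk, and the genes of the CD30 and CD40 ligands and of TCF-1 were higher in cells without. Of 3087 genes tested, 250 passed (8.1%), 102 higher (3.3%) and 148 lower (4.79%) in cells with Gzmk.

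Eomes was at 366, 297, 441, 367 and 284 CPM with Gzmk and at 123, 12.8, 37.9, 121 and 25.4 CPM without, in mice 27, 29, 31, 33 and 34. The ranges did not overlap, as for 3.01% of all genes tested (2.66 ± 0.37, adjusted p = 0.000874). Gzmb was at 501, 14.9, 379 and 942 CPM against 172, 6.38, 12.6 and 131 CPM in mice 27, 29, 31 and 33. In mouse 34 all 257 Gzmb UMIs lay in cells with Gzmk, 191 of them in 1 cell. It was thus higher in all 5 nodules (3.74 ± 0.67, adjusted p = 0.00359), though mouse 29 held only 5 Gzmb UMIs, in 2 cells. Nkg7 rose by 2.52 (adjusted p = 0.00321) and Ccl5 by 2.63 (adjusted p = 0.00792). Runx3, a transcription factor of cytotoxic T cells, rose by 1.42 (adjusted p = 0.00524). Of 8 tested cytotoxic genes, Gzmb, Eomes, Nkg7 and Prf1 rose, and all 8 had a positive log2 fold change (median 1.75, all genes −0.0093). Prf1 (adjusted p = 0.0498) kept its call in 0 of the 4 fits without a mouse in which it could be tested. The inhibitory receptor Havcr2 (Tim-3) and the ectonucleotidase Entpd1 (CD39) were higher by 1.45 and 1.68 (adjusted p = 0.00558 and 0.0118), each in 4 of 5 nodules. Of the proliferation list 4 genes were tested and all 4 rose, Mki67 (1.60, adjusted p = 0.00837), Top2a (1.78), Birc5 (2.27) and Ube2c (3.23). Mki67 was at 289, 178, 122, 201 and 305 CPM against 73.8, 86.1, 63.1, 21.4 and 160 CPM.

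Among the genes lower in cells with Gzmk, Tnfsf8 was at 4.51, 163, 0, 14.3 and 13.9 CPM against 270, 985, 681, 337 and 566 CPM in cells without. The ranges did not overlap (−4.40 ± 0.39, adjusted p = 3.63e-05). Nrp1 was at 0, 74.3, 24.5, 5.73 and 0 CPM against 24.6, 300, 568, 112 and 192 CPM (−4.03 ± 0.40, adjusted p = 8.74e-05). Cd40lg was at 4.51, 74.3, 0, 7.17 and 0 CPM against 98.3, 126, 240, 47.5 and 102 CPM, lower in all 5 nodules (−2.94 ± 0.51, adjusted p = 0.00321). Ikzf2 was lower in 4 of 5 nodules, mouse 27 being the exception (−1.78, adjusted p = 0.00620). Of 7 tested genes of the regulatory list, Ikzf2, Nrp1, Tnfrsf18 and Capg fell and 0 rose. Cd74, which chaperones class II molecules in B cells and other antigen-presenting cells, was at 131, 44.6, 526, 258 and 277 CPM with Gzmk against 246, 300, 972, 755 and 352 CPM without, and so was lower in all 5 nodules (−1.16, adjusted p = 0.0139). Cst3, a cystatin gene high in myeloid cells, was lower too (−1.45, adjusted p = 0.00916). Cd74 was 1 of 5 tested genes of the B cell list and Cst3 the only tested gene of the myeloid list, both lost their calls without mouse 33, and the part of such RNA in the split was not tested. Tcf7, the transcription factor TCF-1 of memory and naive T cells, fell by 2.18 on the log2 scale (adjusted p = 0.00321), and Il7r, the receptor of the survival cytokine interleukin-7, fell by 1.35 (adjusted p = 0.0132). The immediate early genes Fos, Fosb and Jun, which dissociation of tissue is also known to induce, fell by 1.00, 1.10 and 0.72 (adjusted p = 0.0138, 0.00635 and 0.0137). Genes of the helper set did not pass, with Maf at −0.13 (adjusted p = 0.783), Icos at −0.52 (adjusted p = 0.273) and Il10 at 0.89 (adjusted p = 0.146).

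**Figure D5:**
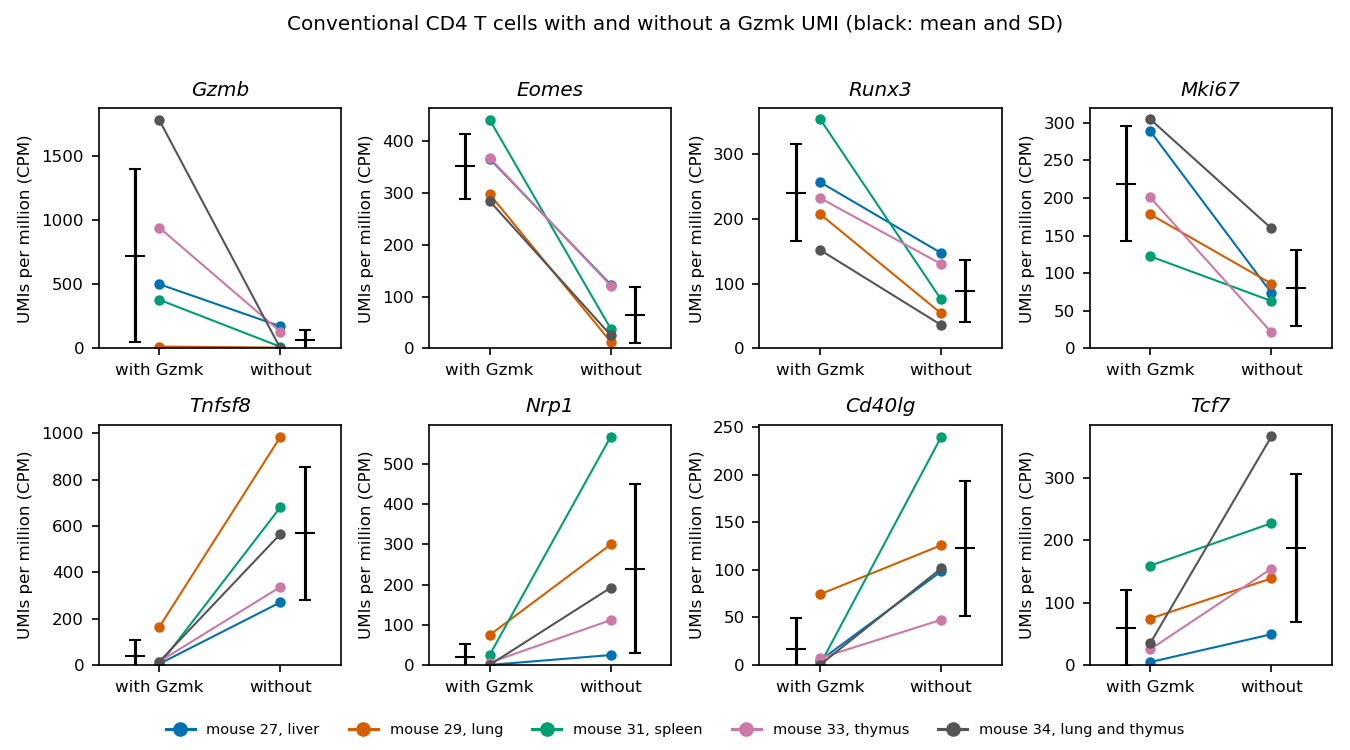
Levels of 8 genes in conventional CD4 T cells with and without a Gzmk UMI, in CPM, with 1 line per nodule and the mean ± SD over 5 nodules in black beside the points (SD bars are cut at 0). Every line of Gzmb, Eomes, Runx3 and Mki67 ran higher with Gzmk, and every line of Tnfsf8, Nrp1, Cd40lg and Tcf7 ran lower.

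The median depth with Gzmk was 2223, 1757, 1853, 4339 and 2600 UMIs, against 1613, 1703.5, 1828, 2520 and 2951 UMIs without, so it was higher in every nodule except that of mouse 34. Cd4 stood at 475 ± 131 CPM with Gzmk and 580 ± 129 CPM without (SD, n = 5). At least 2 Cd4 UMIs were held by 35.6%, 21.7%, 17.9%, 52.9% and 41.2% of cells with Gzmk and by 16.0%, 24.8%, 23.1%, 25.2% and 42.3% of cells without, a share that was higher with Gzmk in mice 27 and 33 and lower in mice 29, 31 and 34. A Gzmk UMI was found in 44.9% ± 25.2 of gated cells with 1 Cd4 UMI and in 50.6% ± 35.0 of those with at least 2. The part of CD8 T cells that lacked a Cd8 UMI and carried a Cd4 UMI by free RNA was not tested further. Leaving out mouse 33 brought the number of calls to 45, leaving out mouse 29 to 132 and leaving out mouse 34 to 101. Tnfsf8, Eomes, Gzmb, Nkg7, Ccl5 and Runx3 kept their calls in 5 of 5 such fits, and Nrp1 in the 3 in which it could be tested. Cd40lg, Ikzf2, Tcf7 and Mki67 were lost without mouse 33, and Il7r without mouse 33 or 34. Entpd1 was lost without mouse 29 or 33, Fos, Fosb and Jun without mouse 33, Tnfrsf18 when mouse 27, 29, 31 or 34 was left out, and Capg when mouse 29, 31 or 34 was. In cells thinned to 1000 UMIs, 540 genes could be tested in 4 nodules and 2 passed, and without cells holding myeloid or B cell UMIs 64 passed. Without the mouse block 29 passed.

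Gated cells with a UMI of Il21 or Cxcr5, genes known from follicular helper T cells, were compared with the other gated cells in the same way. They made up 7.46%, 2.43%, 6.76%, 5.73% and 6.31% of cells thinned to 1000 UMIs in mice 27, 29, 31, 33 and 34 (5.74% ± 1.95, and 13.6% unthinned). CD8 T cells held such a UMI in 5.26% ± 4.15 of thinned cells (1.64% to 11.7% over the nodules). B cells, in which Cxcr5 is expressed, held one in 10.4% ± 6.63 (1.87% to 19.9%). The mean share in the gate was thus close to that of CD8 cells and below that of B cells, but the ranges overlapped. The 2 nodules with at least 20 such cells were those of mice 29 and 33, and of 7322 genes tested in them 58 passed (0.792%), 46 higher (0.628%) and 12 lower (0.164%). The leading genes were outside the follicular helper list, and they do not settle whether these cells are of a follicular helper type. The higher genes were led by genes of stromal cells such as Serping1, a complement inhibitor, and Rgs5, a pericyte gene, whose 60 and 13 UMIs in these cells of mouse 33 all came from 1 cell. In mouse 29, 37 of 59 Serping1 UMIs (62.7%) came from 1 cell. The lower genes were led by macrophage genes such as Lyz2 and the complement genes C1qa, C1qb and C1qc. Of 13 tested genes of the follicular helper list 0 passed by edgeR (1 at an unadjusted p under 0.05, and 0 by DESeq2), and the list median was 0.09 beside −0.016 for all genes. The number of calls fell to 5 with another size factor method and to 12 with DESeq2, and with no mouse block 0 genes passed by edgeR (21 at an unadjusted p under 0.05).

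T cell receptors were not profiled in these nodules, so the variable segments of the β chain (Trbv) were read from the RNA. A cell was assigned a segment where 1 of 35 Trbv genes led its UMIs. The leading segment was Trbv13-1 in mouse 27 (12 of 59 cells, 20.3%, 95% Clopper-Pearson interval 11 to 32.8), Trbv17 in mouse 29 (16 of 130, 12.3%, 7.20 to 19.2), Trbv19 in mouse 31 (14 of 54, 25.9%, 15.0 to 39.7), Trbv3 in mouse 33 (67 of 478, 14.0%, 11 to 17.5) and Trbv31 in mouse 34 (18 of 77, 23.4%, 14.5 to 34.4). The 5 nodules thus had 5 different leading segments. Their share was 19.2% ± 5.88 (SD, n = 5), and 22.3% ± 13.1 in CD8 cells, where Trbv3 led in mouse 27 with 23 of 56 cells (41.1%). From 13 to 22 segments were seen per nodule in CD4 cells. A shared segment does not show a shared receptor, since the joining sequence was not read.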

How the data were processed

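White nodule cells of 5 mice with B cell receptor libraries were analysed. The deposited values are raw UMI counts of 32285 genes in called cells, which the authors did not normalize. The submitters' processing notes name the builds GRCm38 and mm10, and the aligner is not given in the sources used here. The labels name a 5′ kit for the V(D)J libraries and the methods of the study a 3′ kit for RNA libraries, so which transcript end was counted was not settled. Columns of other series were 0.

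Cells were gated on UMI counts in Python 3.11.15. UMIs were summed per nodule and population, with at least 20 cells of both populations, and tested with edgeR 4.0.16 in R 4.3.3 (quasi-likelihood test, trimmed mean of M values, filterByExpr, mouse as block, Benjamini-Hochberg adjustment, threshold 0.05). DESeq2 1.42.0 was an alternative. Gate and splitting genes were not called. The mouse pairs the populations, since both came from the same library. On simulated data, 195 of 195 tested genes changed by a log2 fold change of 2 between CD4 and CD8 cells were recovered, with 3.46% false calls. The simulation used a fixed dispersion and a mouse effect shared by both populations. It therefore cannot give the recovery of smaller changes, or the false calls where the contrast itself differs between mice.

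The members and gene lists were chosen with earlier results of these data known. The text names list genes and, outside the lists, the 10 genes of largest log2 fold change in each direction among those called, alike in every nodule and with at least 20 CPM in the higher population, antigen receptor, mitochondrial and ribosomal genes and unnamed models excluded. Serping1, Rgs5, Tcrg-C2 and genes named for 1 cell's weight are given as examples. The comparisons with wider Foxp3, Areg-positive and Gzmk-positive cells and the setting of at least 2 Cd4 UMIs were added after the data had been seen. Thinning drew UMIs without replacement and left out shallower cells. Some genes within the naming rule are not reported here. A count of 0 allows up to 3 UMIs.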

Additional observations from a re-analysis of the deposited data

Results flagged for a closer look

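In 1 of 35 values examined over the 5 nodules, the gap between an extreme nodule and its nearest neighbour was above Dixon's critical value of 0.71 of the whole range, which chance alone exceeds in about 1 of 20 groups. The summed level of myeloid markers in the gated cells was 2610 CPM in mouse 29, against 126 to 675 CPM elsewhere, a gap of 0.779 of the range.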

How the results depend on the processing

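Of the calls that could be retested, all kept the sign of their fold change in every alternative fit, including each fit without a mouse. These fits reused cells and nodules of the main fit, so a kept sign is no independent check. In thinned cells 11 of 28 calls against CD8 cells and 72 of 250 of the Gzmk split could be retested. For cells with Il21 or Cxcr5, 6 of 58 could be with a minimum of 10 cells. The number of calls moved more. Against CD8 cells 28 genes were called, and 345 without a filter on low counts, 47 without cells holding myeloid or B cell UMIs, 58 in thinned cells, 7 with at least 2 Cd4 UMIs, and 4 to 98 without single mice. Against Foxp3 cells 37 were called, and 9 with DESeq2, 143 without the filter, 75 with at least 2 Cd3 UMIs, 19 without cells holding myeloid or B cell UMIs, 22 in thinned cells, 18 with at least 2 Cd4 UMIs, 60 with a minimum of 10 cells, and 5 to 98 without single mice. Against Areg-positive cells 16 were called, and 93, 3, 1, 6 and 1 without the filter, with 2 Cd3 UMIs, without myeloid or B cell UMIs, thinned and with 2 Cd4 UMIs, and 0 to 45 without single mice. For cells with Il21 or Cxcr5 58 were called, and 12 with DESeq2, 5 with other size factors (RLE) and 1 with a minimum of 10 cells. For the Gzmk split 250 were called, and 618 without the filter, 143 with 2 Cd3 UMIs, 64 without myeloid or B cell UMIs, 2 in thinned cells, and 45 to 246 without single mice. Without the replicate block, which pairs populations of the same library, 1, 0, 0, 0 and 29 genes were called in these 5 comparisons, and at an unadjusted p under 0.05 there were 137, 91, 51, 21 and 537. The causes of these shifts were not tested, apart from the fewer genes or nodules that some settings leave. The share of cells with Il21 or Cxcr5 was 5.74% at 1000 UMIs, 2.67% at 500, 10.3% at 2000 and 13.6% unthinned.

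The comparison of cells with Il21 or Cxcr5 rested on 2 nodules, so fits without a mouse, in thinned cells, with 2 Cd3 UMIs and without myeloid or B cell UMIs were not run, and neither was the Gzmk split with 2 Cd4 UMIs, which left 1 nodule. The Foxp3 comparison with the narrower gate was not run. Depth limits rare transcripts such as Il21, and the gate misses cells in which no Cd4 UMI was drawn. It also keeps cells that express Foxp3 or Areg but in which no such UMI was drawn.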

Other observations

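The summed level of the 12 type 17 helper genes was 427, 645, 273, 548 and 1119 CPM in mice 27, 29, 31, 33 and 34, and the members named here were picked after their values had been seen. Il17a, the cytokine interleukin-17A, was at 298 CPM in the lung and thymus nodule of mouse 34, against 22.9, 2.88, 0 and 3.11 CPM in mice 27, 29, 31 and 33. The 125 Il17a UMIs of mouse 34 came from 9 cells, of which the richest held 41 (32.8%), whereas the Il17a UMIs of mice 27 and 33 came from 1 cell each. Il22, a cytokine that acts on epithelial cells, was at 47.6 CPM in mouse 34, from 20 UMIs in 4 cells, and at 0 in the other nodules. Il23r, the receptor that sustains such cells, was at 61.9 CPM in mouse 34 and at 0 to 4.32 CPM in the others. Ccr6, their chemokine receptor, was at 42.8 CPM against 0 to 2.88 CPM, and Il17f at 16.7 CPM against 0. With 1 nodule of that kind, the difference has no replicate.

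Cxcl13, a chemokine that draws B cells into follicles, reached 49.8 CPM in mouse 33. Of its 160 UMIs there, 111 (69.4%) were in 1 cell.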
